A study of Mus musculus with 12 samples.

Results

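Glutamate and GABA are the main fast transmitters of the brain, and 47 genes that encode their receptors, the enzymes that make GABA and the transporter that loads it into vesicles were followed here in peaks of the histone variant H2A.Z. The members were the peaks that carry 1 of these gene names with the middle of the peak within 1000 bp of the assigned transcription start site (TSS). This gave 84 of the 59069 peaks in 4 lists, at 38 of the 47 genes, while 57.3% of all protein-coding genes had a promoter peak in at least 1 list. The peaks come from chromatin immunoprecipitation of mouse nucleus accumbens tissue, the part of the ventral striatum that serves reward, in 12 samples with 3 in each of 4 conditions. The conditions are saline followed by saline (SS), saline followed by cocaine (SC, labelled acute), cocaine followed by saline (CS, labelled withdrawal) and cocaine followed by cocaine (CC, labelled challenge). Dose, interval, strain, age and sex are not stated in the labels, and the tissue was not sorted by cell type, so fewer cells with H2A.Z at a gene and less H2A.Z per cell cannot be told apart.

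Each condition is represented by 1 peak list, so no value has a spread between samples, no difference between conditions was tested, and intervals cover the counting of genes only. The lists held 24655 (SS), 23170 (SC), 6417 (CS) and 4827 (CC) peaks, with median widths of 734, 727, 110 and 107 bp. Differences in a gene's peaks between SS or SC on one side and CS or CC on the other therefore cannot be told apart from this difference between the lists. Fold enrichment is the authors' ratio of a peak over background. It is read here within a list, together with its percentile among all peaks of that list, and is not on a common scale between lists. As a check of the tissue, all 10 markers of medium spiny neurons had a promoter peak in SS, as did 5 of 7 interneuron, 1 of 4 astrocyte, 1 of 4 oligodendrocyte and 0 of 4 microglial markers, beside 53.4% of all protein-coding genes. Of the 10 medium spiny neuron markers, 8 had a promoter peak in SC, 0 in CS and 1 in CC. The shares of all protein-coding genes there were 50.9%, 17.2% and 13.5%. A promoter peak is no measure of expression, so these counts do not establish which cells were present.

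H2A.Z replaces the usual histone H2A in nucleosomes beside start sites, where it is exchanged rapidly and is linked to how readily a gene responds to a stimulus. AMPA, NMDA and kainate receptors are glutamate-gated cation channels, whereas metabotropic glutamate receptors act through G proteins. GABA-A receptors are chloride channels assembled from alpha, beta and gamma or delta subunits, and GABA-B receptors couple to G proteins. Medium spiny neurons, the principal cells of the nucleus accumbens, release GABA and receive glutamate from cortex, thalamus, hippocampus and amygdala.

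Promoter sequences of 4 members are shown because they span the range of what the lists hold. Gria4 and Grin2d are the members in the RefSeq promoter table with a promoter peak after a cocaine history, Grin3b has the highest SS fold enrichment of all members, and Gad1 has no peak in any list. Each runs 5′ to 3′ on the gene's strand, from 250 bases before to 50 bases after the RefSeq start in GRCm38.p6, with CpG dinucleotides in capitals.
Gria4, chr9:4796185-4796484, minus strand: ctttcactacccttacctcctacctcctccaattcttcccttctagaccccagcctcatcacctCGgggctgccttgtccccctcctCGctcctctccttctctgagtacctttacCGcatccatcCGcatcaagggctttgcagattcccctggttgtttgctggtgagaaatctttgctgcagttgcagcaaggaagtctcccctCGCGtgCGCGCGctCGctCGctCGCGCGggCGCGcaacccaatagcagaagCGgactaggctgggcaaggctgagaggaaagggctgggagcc
Grin2d, chr7:45866632-45866931, minus strand: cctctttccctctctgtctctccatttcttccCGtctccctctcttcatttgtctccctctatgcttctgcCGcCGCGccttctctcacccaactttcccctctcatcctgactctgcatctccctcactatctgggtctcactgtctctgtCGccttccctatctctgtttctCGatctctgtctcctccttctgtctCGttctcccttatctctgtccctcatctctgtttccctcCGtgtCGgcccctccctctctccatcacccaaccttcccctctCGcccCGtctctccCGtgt
Grin3b, chr10:79970474-79970773, plus strand: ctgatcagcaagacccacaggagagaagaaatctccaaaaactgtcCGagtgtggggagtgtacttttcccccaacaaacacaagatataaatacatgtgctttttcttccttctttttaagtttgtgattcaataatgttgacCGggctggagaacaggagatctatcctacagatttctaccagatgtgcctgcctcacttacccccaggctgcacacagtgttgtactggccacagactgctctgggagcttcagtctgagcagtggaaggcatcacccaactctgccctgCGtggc
Gad1, chr2:70561879-70562178, plus strand: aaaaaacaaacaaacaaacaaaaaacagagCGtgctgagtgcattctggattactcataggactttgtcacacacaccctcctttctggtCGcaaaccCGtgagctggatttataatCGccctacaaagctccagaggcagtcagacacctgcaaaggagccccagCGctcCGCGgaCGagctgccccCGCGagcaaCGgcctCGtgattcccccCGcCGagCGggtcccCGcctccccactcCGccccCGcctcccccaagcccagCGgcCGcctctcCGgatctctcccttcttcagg
Gria4 holds 17 CpG dinucleotides in this window, Grin2d 12, Grin3b 3 and Gad1 21. The member with the highest SS fold enrichment thus has the fewest CpG dinucleotides of the 4, and the gene with no peak has the most. These counts are of the windows and not of the peaks: the Grin3b SS peak begins only at 79970707, near the 3′ end of its window. Over all members in the promoter table the medians went the other way, at 17 with a peak and 9 without.

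Under saline most of these genes carried H2A.Z at a promoter. Of the 47 genes, 37 had a promoter peak in SS (78.7%, 95% exact binomial interval 64.3 to 89.3%), against 53.4% of all protein-coding genes. In SC there were 35 (74.5%, 59.7 to 86.1%), against 50.9% of protein-coding genes. After a cocaine history the lists named few of them: 3 genes in CS (6.38%, 1.34 to 17.5%; all protein-coding genes 17.2%) and 1 in CC (2.13%, 0.0539 to 11.3%; all protein-coding genes 13.5%). Glutamate receptor genes made up 22 of 26 in SS and 21 in SC, with 2 in CS and 1 in CC. Genes of GABA receptors, synthesis and vesicle loading made up 15 of 21 in SS and 14 in SC, with 1 in CS and 0 in CC.

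**Figure D1:**
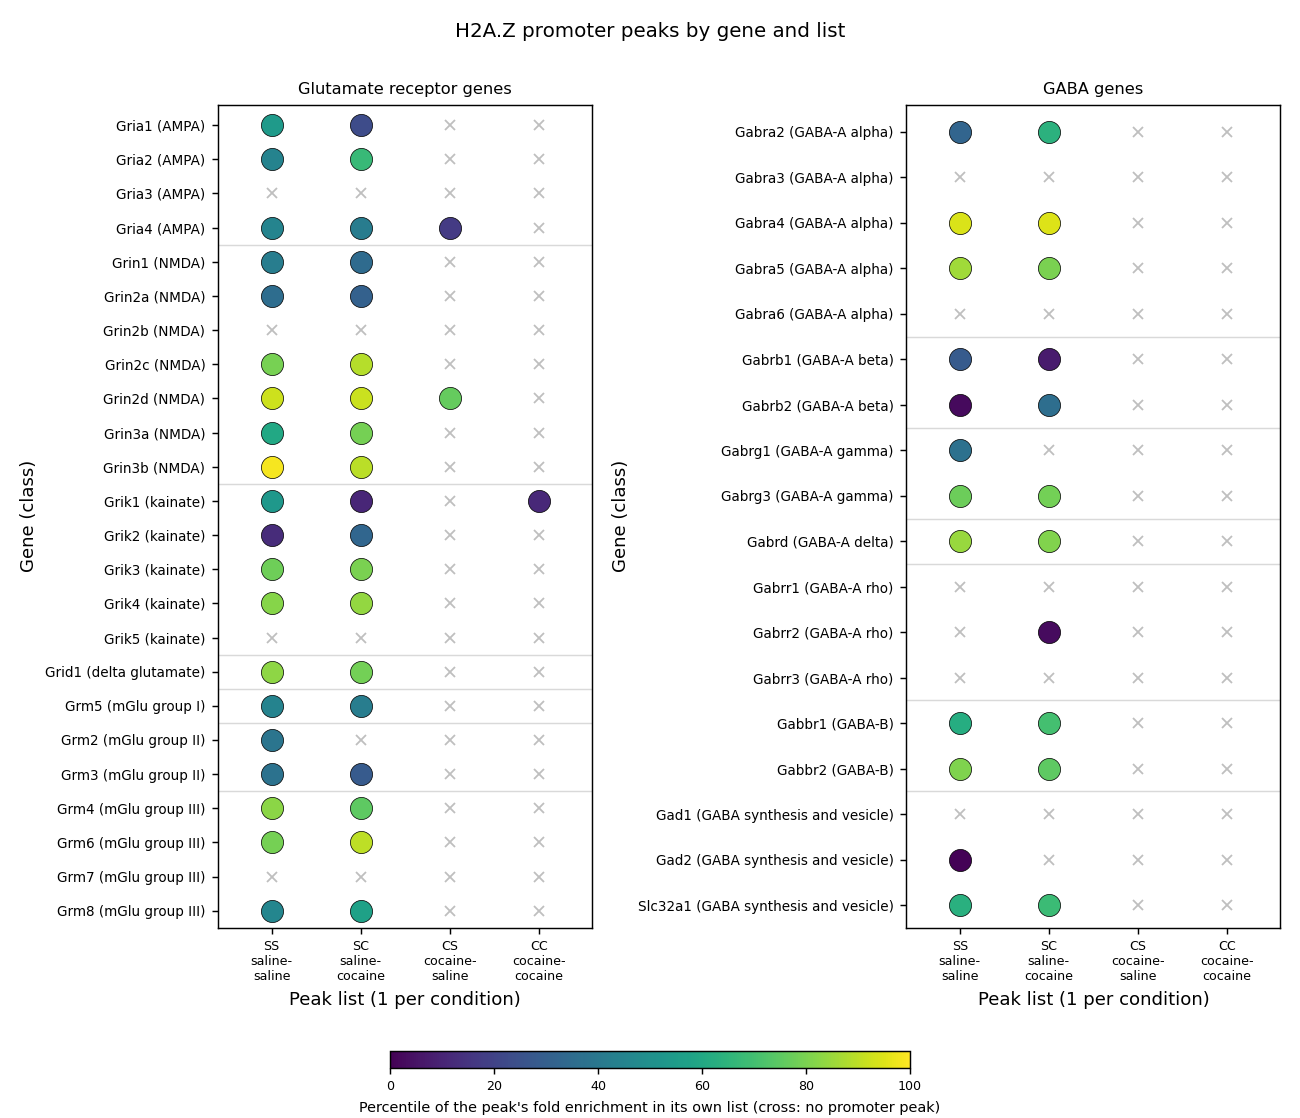
Each circle is a gene with a promoter peak in that list, coloured by the percentile of the strongest promoter peak's fold enrichment among all peaks of the same list, and a cross marks a gene without one. It shows 42 of the 47 genes. Columns are the 4 lists, with 32, 30, 2 and 1 of these genes marked from left to right.

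In SS member peaks sat lower in the strength order than promoter peaks in general, and in SC the medians were close. In SS the median percentile of the strongest promoter peak was 54.1 over the 37 members and 69.5 over all 13585 promoter genes. Of the members, 17 (45.9%) lay below the median SS fold enrichment of 4.34, against 24.4% of all promoter genes. In SC the medians were 68.2 over 35 members and 68.9 over 12948 genes, with 37.1% of members and 24.7% of genes below the median of that list. Peak middles fell within 100 bp of the TSS at 11 of 37 members in SS (29.7%; all promoter genes 49.7%) and at 14 of 35 in SC (40%; 49.4%). By distance, the members nearest inside the limit of 1000 bp were a second SS peak of Grm3 at -796 bp and the SC peak of Grin2d at 753 bp. Nearest outside were second peaks of Gabrb1 at 1048 bp in SS and 1104 bp in SC.

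AMPA receptor genes had middling peaks. Gria1, a principal subunit of these receptors, had a fold enrichment of 4.55 in SS (percentile 54.1) and 3.38 in SC (22.8). Gria2, whose edited subunit makes the channel impermeable to calcium, had 4.09 in SS (44.8) and 6.30 in SC (67.3). Gria4 had 4.11 in SS (45.3), 4.13 in SC (41.7) and 4.13 in CS (17.5). The 3 genes stood close together in SS and spread apart in SC, with Gria1 lower and Gria2 higher in the order. Gria3, on chromosome X, had no peak within 2000 bp of the gene in any list.

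Among NMDA receptor genes the strongest peaks belonged to the less common subunits. Grin3b, which encodes a glycine-binding subunit, had 12.2 in SS (percentile 98.5) and 12 in SC (89.7). Grin2d followed with 10.2 in SS (92.3) and 12.6 in SC (92.0), and it had 5.20 in CS (76.4). Grin2c had 7.43 (79.6) and 11.8 (88.7) in SS and SC. Grin3a stood at percentile 60.1 in SS (fold 4.90) and 79.2 in SC (9.60). The obligatory subunit gene Grin1 stood lower, at 41.8 in SS (3.97) and 34.6 in SC (3.78). Its peak in both lists lay at an annotated start well inside the gene, downstream of the RefSeq start. A second SC promoter peak, at chr2:25318415-25319101 (3.77, percentile 34.1), was overlapped by no SS peak. An SS peak named Grin1 of like strength (3.77, percentile 36.4) lay farther upstream, at chr2:25320324-25320659. With a distance of -1304 bp it was outside the promoter limit. Grin2a, a common subunit, was likewise low at 35.2 in SS (3.74) and 30.7 in SC (3.63). Grin2b had no promoter peak under its own name; an SC peak near its 5′ end (chr6:136172318-136172994, fold 3.89) was assigned by the authors to Gm26653.

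Kainate and delta receptor genes split into a strong and a weak set. Grik3 (6.98 in SS, 9.73 in SC) and Grik4 (8.01 and 10.7) stood at percentiles 77.8 and 82 in SS. The delta receptor gene Grid1 (8.21 and 9.50), whose product acts as a synaptic organiser, stood at 82.9 in SS and at 78.8 in SC. Grik2 was weak under its own name, at 12.3 in SS (3.10) and 32.6 in SC (3.70). These peaks lay at an annotated start inside the gene, downstream of the RefSeq start. Its RefSeq promoter window was covered in both lists by a peak assigned to AC115891.2, and the values given are not of that peak. Grik1 had 2 SS promoter peaks, the stronger at 4.50 (percentile 53.2), and a single narrower SC peak at 3.01 (10.7). Among members found in both lists this was the largest difference in percentile of the strongest peak. The SC peak overlapped the stronger SS peak by 70 bp and the weaker one (2.30, percentile 0.264) by 131 bp. The difference thus compares peaks at largely different places. Grik5 had no promoter peak under its own name, although a peak assigned to Zfp574 overlapped its RefSeq promoter window in SS (3.32) and SC (2.94).

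Among metabotropic glutamate receptors, Grm5 of group I and the group II genes had middling to weak peaks, and those of group III were mostly stronger. Grm5, the main group I receptor of striatal neurons, had 4.07 in SS (percentile 44.6) and 4.14 in SC (41.8). Grm3 had 3.82 in SS and 3.55 in SC. Its group II partner Grm2, a presynaptic autoreceptor, had 3.87 in SS (39.0, chr9:106655530-106656224) and no peak in the other 3 lists. In group III, Grm4 had 8.17 in SS (82.7) and 8.40 in SC (75.2), and Grm8 had 4.14 (45.8) and 5.22 (57.1). Grm6, best known from retinal bipolar cells, had 7.34 (79.2) and 12.1 (90.1). The start of Grm7 was covered in SC only by a weak peak assigned to Gm20387 (3.06), and an SS peak of that name (3.06) lay just inside the gene.

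GABA-A subunit genes lie in clusters. On chromosome 7, Gabra5 had a fold enrichment of 8.87 in SS (percentile 85.9) and 9.73 in SC (79.7), and Gabrg3 had 6.98 (77.7) and 9.53 (78.9). On chromosome 11, Gabrb2, a beta subunit common in adult brain, had 2.74 in SS (2.62) and 3.84 in SC (35.8). In both lists the pair on chromosome 7 thus stood above Gabrb2. Gabra6, in the chromosome 11 cluster and known from cerebellar granule cells, had no peak within 2000 bp of the gene.

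The chromosome 5 cluster was mixed. Gabra4, a subunit of extrasynaptic receptors prominent in striatum, had the second highest SS value of the members, 10.6 (percentile 94.3, chr5:71657601-71658476), and the highest in SC, 13.3 (94.8, chr5:71657496-71658297). Both peaks also covered an upstream RefSeq start of its neighbour Gabrb1 on the opposite strand, so the name Gabra4 does not separate the pair. At its own downstream start Gabrb1 had 3.52 in SS (28.4) and 2.88 in SC (7.08). Just outside the promoter limit it had a stronger peak, of 3.89 in SS (39.8) and 3.78 in SC (34.3). Gabra2 had 3.64 in SS (32.2) and 5.87 in SC (63.9), where a pair of SS peaks was matched by 1 SC peak of 1458 bp. Gabrg1 had 2 SS promoter peaks, of 3.77 and 2.86, and no peak in the other lists.

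Of the remaining GABA-A genes, Gabrd, whose subunit pairs with alpha 4 in extrasynaptic receptors, was strong at 8.56 in SS (84.4) and 10.1 in SC (81.0). The Gabrr genes, best known from retina, had no SS promoter peak, and Gabrr2 had a weak SC peak (2.67, percentile 2.78, chr4:33062472-33063395). Gabrr3 and the X-linked Gabra3 had no peak within 2000 bp of the gene in any list. Both GABA-B genes were held in SS and SC, Gabbr1 at 5.02 and 6.84 and Gabbr2 at 7.71 and 8.44.

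The genes that make and load GABA differed from one another although most neurons of this tissue release GABA. Slc32a1, the vesicular GABA transporter, had 5.12 in SS (percentile 63.3) and 6.47 in SC (68.2). Gad2, 1 of the pair of GABA-synthesising enzymes, had 2.39 in SS (0.402, chr2:22622317-22622668), among the weakest peaks of that list, and none in the others. Gad1, the other enzyme, had no peak of any name within 2000 bp of the gene in any list.

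The comparison of SC with SS asks what a first cocaine exposure goes with. Of the 37 SS members, 34 (91.9%, 78.1 to 98.3%) also had an SC promoter peak, against 88.2% of all SS promoter genes. The 3 without one were Gad2, Gabrg1 and Grm2, all below the SS median: 14 of 17 such members had an SC peak (82.4%; all genes 69.3%), and so did 20 of 20 members above it (100%; all genes 94.3%). In the other direction only Gabrr2 was in SC without SS, 1 of 35, while 92.6% of all SC promoter genes were in SS. By position, 33 of 37 SS members were overlapped by an SC peak (all genes 91.1%).

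The order of strength was similar in both lists. Over the 34 members found in both, Spearman's rank correlation of fold enrichment percentiles was 0.84, a description across genes that share the 2 lists, and it was 0.89 over 11987 genes. The percentile was higher in SC for 17 members and lower for 17, and it moved by less than 10 for 22. Moves of over 20 upwards included those of Gabrb2 (2.62 to 35.8), Gabra2, Gria2 and Grik2, and those of over 20 downwards were Grik1 (53.2 to 10.7), Gria1 and Gabrb1. These members were weak or middling in SS, and no class moved in 1 direction as a whole where it had more than 2 genes in both lists. The Grik1 values are of SS and SC peaks that overlapped by only 70 bp. The move of Gabrb1 depends on the promoter limit. Its stronger peak, just outside 1000 bp in both lists, stood at percentile 39.8 in SS and 34.3 in SC.

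**Figure D2:**
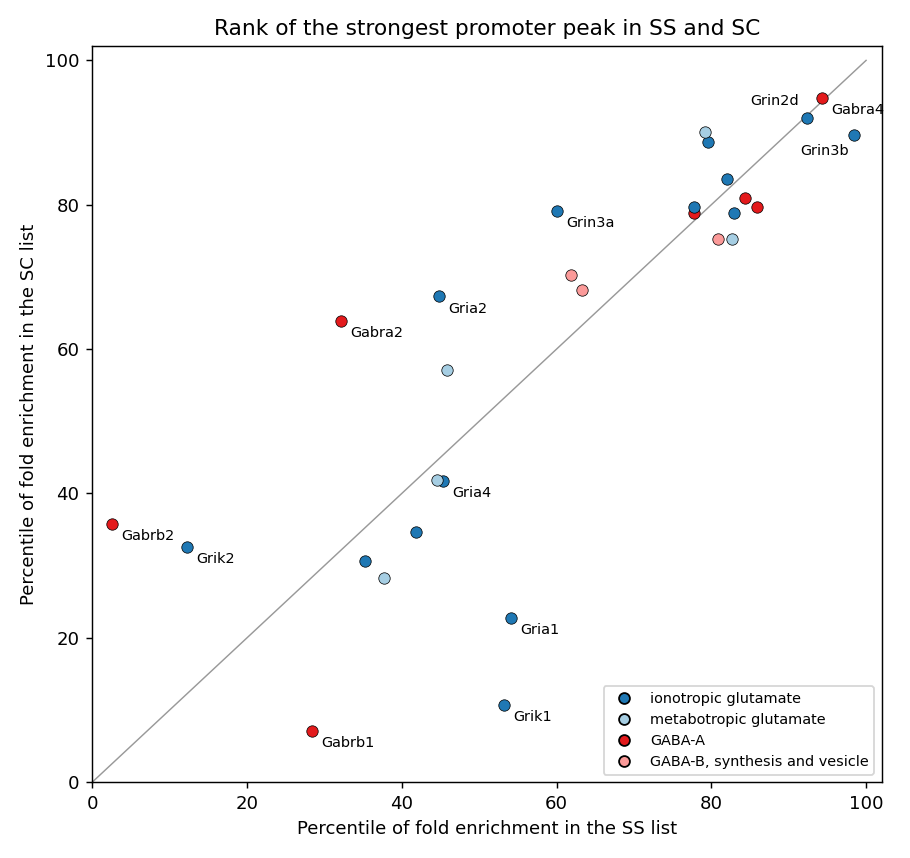
Each point is 1 of 29 of the 34 genes with a promoter peak in both SS and SC, placed by the percentile of its strongest promoter peak in the SS list (horizontal) and in the SC list (vertical), with the line of equal percentile. Genes above percentile 75 in SS stay near the line, while Grik1, Gria1 and Gabrb1 lie below it and Gabrb2, Gabra2 and Gria2 above it.

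The comparison of CS with SS asks what earlier cocaine goes with when saline is given last. Gria4 and Grin2d were among the 3 members found in CS, 8.11% of the 37 SS members (1.70 to 21.9%), against 28.8% of all SS promoter genes. By overlap 3 genes were found again, against 30.2% of all. By strength, 1 of 20 at or above the SS median was held (Grin2d, 5.00%, 0.127 to 24.9%; all genes 34.1%), and 2 of 17 below it (11.8%, 1.46 to 36.4%; all genes 12.4%). Grin3b, Gabra4 and Gabra5, with SS percentiles of 85.9 or more, had none.

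The CS peaks of Gria4 and Grin2d were short segments of the saline peaks. At Gria4 the CS peak spanned chr9:4795759-4795868 (109 bp), entirely within the SS peak chr9:4795453-4796571, and its middle lay 420 bp downstream of the RefSeq start. The authors assigned that peak to another transcript of Gria4, with a distance of -294 bp, upstream of its start. At Grin2d it spanned chr7:45866460-45866573 (113 bp) within the SS peak chr7:45865917-45866840, with its middle 164 bp downstream of the RefSeq start and 613 bp downstream of the authors' start. The printed promoter windows do not reach the CS peaks: the gap was 317 bp at Gria4 and 59 bp at Grin2d, on the upstream side of the peak. These segments covered 9.75% and 12.2% of the width of the SS peaks.

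**Figure D3:**
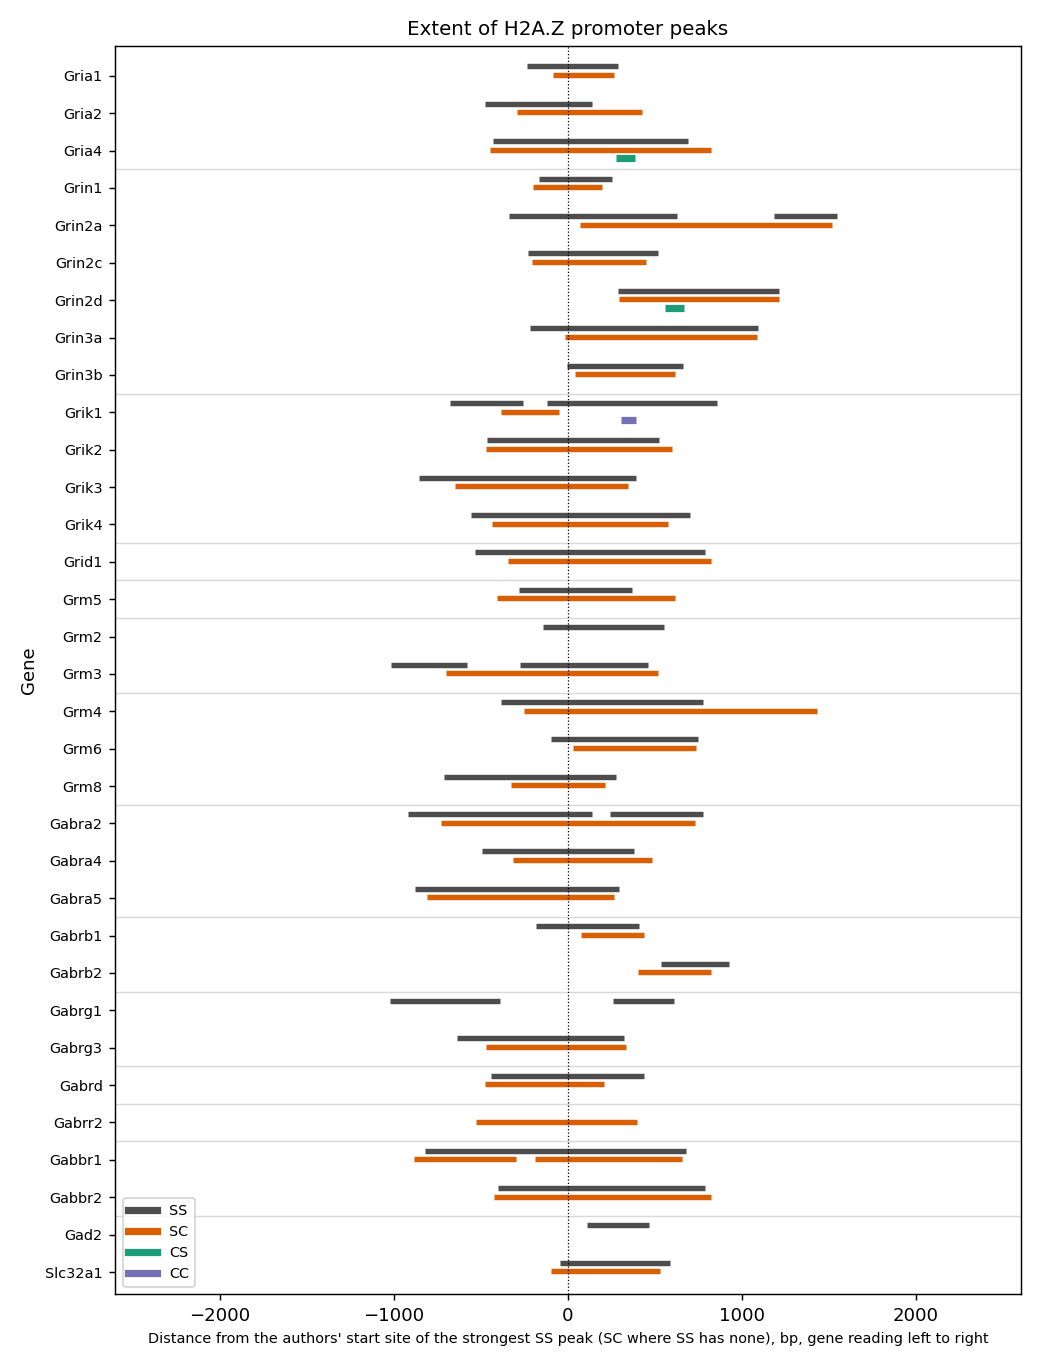
Bars show the extent of each promoter peak in bp from the authors' start site of the gene's strongest SS peak (SC where SS has none), with the gene reading left to right. CS bars (Gria4, Grin2d) and the CC bar (Grik1) are short and lie downstream of that site inside the SS bars. Second peaks of Grin1 in SC and Gabbr1 in SS fall outside the axis.

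The comparison of CC with SS asks the same of cocaine given to mice with such a history. Only Grik1 was found in CC, 2.70% of the 37 SS members (0.0684 to 14.2%), against 22.7% of all SS promoter genes. By overlap it was again Grik1 alone, against 23.8% of all. It was 1 of 20 members at or above the SS median (all genes 27.0%), and 0 of 17 lay below (upper limit of the interval 19.5%; all genes 9.24%). The CC peak spanned chr16:88289824-88289912 (88 bp, fold 4.08, percentile 11.1), within the stronger SS peak chr16:88289357-88290334. It lay 352 bp from the SC peak of Grik1. No member had a promoter peak in both CS and CC. Over the RefSeq promoter windows themselves, 0 of the 32 members in that table were covered by a CS or CC peak of any name, against 7.21% and 5.06% of all protein-coding genes in the table. Of the members with a CS or CC promoter peak, the table holds only Gria4 and Grin2d, so Grik1 could not be counted. With such low shares over all genes, no difference is read from 0 of 32.

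Members with a promoter peak of their own name had more CpG dinucleotides at the RefSeq start than members without, and among the former CpG content did not follow the strength of the peak. The RefSeq promoter table held 32 of the 47 genes. The 25 with an SS or SC promoter peak of their name had a median of 17 CpG dinucleotides in 300 bases and a median observed/expected ratio of 0.59. The 7 without had medians of 9 and 0.28. Over all protein-coding genes the medians were 21 and 0.75 with a peak and 3 and 0.21 without. A named peak need not lie over this window: those of Grin1, Grm6, Gabrg1 and Grik2 do not reach it. The windows of Grik2, Grik5 and Grm7 are covered by peaks of another name. Split by an SS or SC peak of any name over the window, the 24 members with one had medians of 16 and 0.58 and the 8 without 3.5 and 0.25, against 22 and 0.76 and 3 and 0.19 over all protein-coding genes. Exceptions stood on both sides: Grin3b (ratio 0.17) and Grm6 (0.22) had strong SS peaks whose middles lay 326 bp downstream of the authors' start, and Gad1 (0.85) had no peak. Among the 24 members with an SS peak, Spearman's rank correlation of the ratio with the SS percentile was -0.08, against 0.29 over 9348 genes, as a description across genes. It was -0.02 over the 20 members whose own SS peak reached the window.

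**Figure D4:**
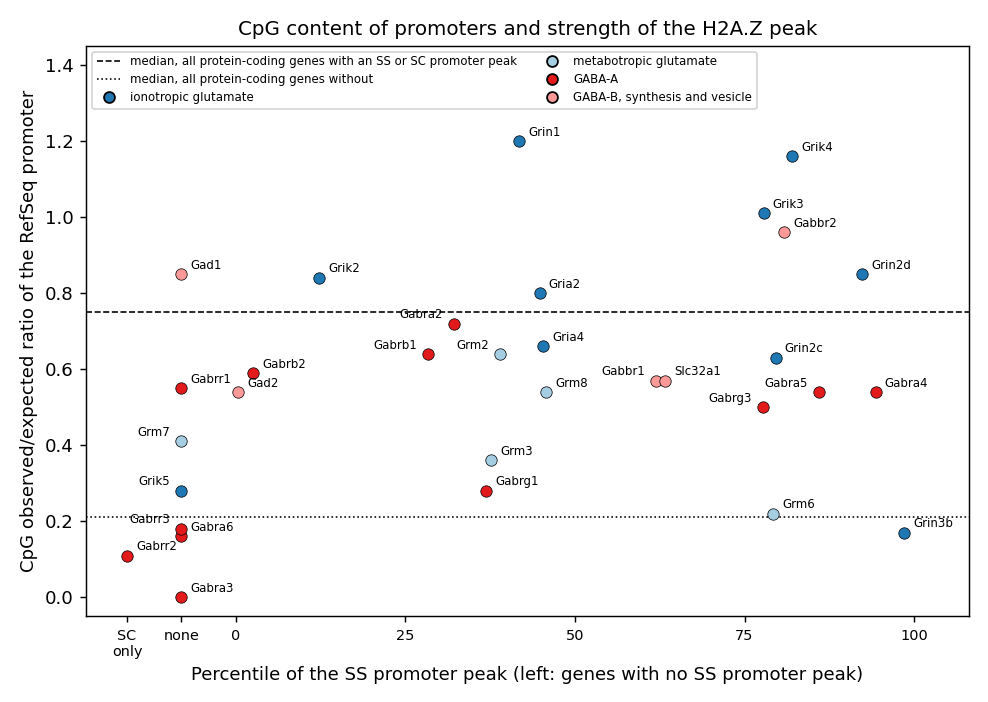
Points are the 32 members with a RefSeq promoter, placed by the percentile of the SS promoter peak (genes without one at the left) and by the CpG observed/expected ratio of the 300-base promoter; lines give medians over all protein-coding genes with a peak (0.75) and without (0.21). Grin3b and Grm6 combine a high percentile with a low ratio, and Gad1 has a high ratio and no peak.

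Short motifs were searched on both strands of these windows, and a match is no binding site. The Sp box GGGCGG stood in 13 of the 25 members with a peak of their name (52%; 70.8% of all protein-coding genes with such a peak, 35.7% of all promoters in the table). The Egr motif GCGNGGGCG, which can overlap the Sp box, stood in 5 (20%; 13.3%; 5.55%), those of Gria4, Grin1, Grm3, Gabrb1 and Gabrb2. TATAAA stood in 2 (8%; 8.67%; 13.6%) and the AP-1 motif TGANTCA in 2 (8%; 5.97%; 7.81%). The cyclic AMP response element TGACGTCA was in no window of the 32 members (1.79% of all promoters in the table). Members are counted per gene, whereas shares of all promoters in the table are per promoter. Per gene, the shares over all protein-coding genes were 49.2% (Sp), 8.51% (Egr), 14.8% (TATAAA), 8.12% (AP-1) and 2.54% (TGACGTCA). The Sp box also stood in 57.1% of the 7 members without a peak of their name.

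Outside promoters, peaks inside gene bodies carried member names 16 times in SS (10 genes) and 27 times in SC (15 genes), which was 25.8% and 40.9% of the peaks named for members, against 14.9% and 17.2% of all named peaks. Overlap with the other list was found for 10 of the 16 (62.5%; all gene-body peaks 56.1%) and 11 of the 27 (40.7%; 49.9%). Like gene-body peaks in general, most were weak, with median percentiles of 32.1 and 23.6 (all 28.9 and 24.5). Stronger ones were found 3′ in Grik5 (7.67 in SS, 8.67 in SC, chr7:25010183-25010902 in SS) and inside Grik4 (5.68 in SS, 5.34 in SC, chr9:42897096-42898350 in SS). In Grin2d a peak of 5.55 in SS (percentile 68.6) was matched by a weak one of 3.39 in SC (23.6). At Grin2c the SC list named a peak of 13.7 at chr11:115249863-115250688, and the same place held an SS peak of 12.3 assigned to Gm25837.

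Genes that handle the same transmitters were counted as fixed lists, beside 53.4% of all protein-coding genes with an SS promoter peak and, of all SS promoter genes, 88.2% held in SC, 28.8% in CS and 22.7% in CC. Of 26 genes for glutamate transport, metabolism and auxiliary receptor subunits, 19 had an SS promoter peak. All 19 were held in SC, 5 in CS and 2 in CC. Among the 5 were the glutaminase Gls2, the neuronal glutamate transporter Slc1a1, the AMPA receptor auxiliary subunit Cacng4 and the neuronal pentraxin receptor Nptxr, and Gls2 was among the 2 in CC. Of 15 genes for GABA transport, breakdown, scaffolds and auxiliary subunits, 9 had an SS peak. All 9 were held in SC, 2 in CS (the GABA transaminase Abat and Lhfpl4, which helps to place GABA-A receptors at synapses) and 1 in CC (Abat). SC also listed the glutamine synthetase Glul, the inhibitory scaffold gephyrin (Gphn) and the GABA-B auxiliary subunit Kctd8, each over an SS peak that the authors assigned to another gene name. Of 8 other subunits of ligand-gated chloride channels, Gabrq and Glra2, both X-linked, were in SS and not in SC. Their SS peaks were weak, at 3.1 (percentile 11.7) and 3.29 (19.3). Of all SS promoter genes below the SS median, 69.3% were held in SC. Glrb, the beta subunit of glycine receptors, was in SS, SC and CS.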

How the data were processed

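H2A.Z peaks of nucleus accumbens were deposited as 4 annotated lists, 1 per condition of 3 samples. The labels do not state if samples were pooled for calling, nor the control, the settings or the depth per sample. Per the submitters' processing notes, the build was mm10, and MACS2, SAMtools, HISAT and cutadapt were used. Fold enrichment is a linear ratio per peak and the q-value is on a linear scale, both deposited by the authors, per the file headers. The authors deposited region class, gene name and distance too. Where a distance is given, it matched peak middle minus start site to 1 bp. Starts and ends are as the lists give them.

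Promoter peaks were those within 1000 bp of the TSS, and a gene's strongest such peak gave its fold enrichment. Percentiles rank fold enrichment among all peaks of a list. Overlaps used bedtools 2.31.1 (at least 1 bp), and intervals are 95% exact binomial (Clopper-Pearson, scipy 1.17.1). Overlap counting was tested on simulated lists. All 47 names matched the RefSeq table of GRCm38.p6, the assembly that mm10 names, and 32 matched the promoter table. Where the gene was in both, 94.1% of the authors' SS start sites lay within 1000 bp of a RefSeq start. The genes and lists were chosen with earlier results of these data known. By the rule for names, members are described, as are listed related genes with a CS or CC peak; all 47 genes enter the counts, and the values of some genes are not reported here. Alternatives were the promoter distance, a q-value limit, lists of equal length and overlap in place of names.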

Additional observations from a re-analysis of the deposited data

How the results depend on the processing

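Of 100 values under alternatives, 78 stayed within 1.5 times the reported value and 22 did not. The 78 include class counts already at 0 in CS or CC, which alternatives that only remove peaks could not move. The 100 include the CpG medians split by any peak over the RefSeq window, an alternative chosen after seeing the data. With each list reduced to its 4827 strongest peaks, members with a promoter peak numbered 10 in SS and 11 in SC, of which 7 were shared. Then 1 SS member was also in CS and 0 in CC, against 22.1% and 23.1% of all SS promoter genes, so the low count in CS and CC rests on 10 genes there. By class, ionotropic glutamate receptors then numbered 4 in SS, 6 in SC and 1 in CS. Metabotropic receptors numbered 1 in SS and 1 in SC, GABA-A genes 4 and 4, and GABA-B, synthesis and vesicle genes 1 and 0. These changes follow from the smaller number of SS and SC peaks. With peaks of −log10 q of at least 5 only, CS and CC named 0 members, hence 0 SS members were held in either (all genes 4.37% and 3.57%), 0 ionotropic genes in CS or CC and 0 GABA-A genes in CS. With promoters limited to 500 bp, 1 ionotropic gene was left in CS, because the Grin2d peak lies farther from the authors' start. A limit of 2000 bp, and overlap of 1 bp or of 50% of the shorter peak in place of names, moved no count by over 1.5 times. No paired analysis was possible because each condition has 1 list and no value per sample, and no sample could be left out for the same reason. Depth was not analysed here.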

Other observations

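Peaks after a cocaine history marked different places in the same promoters at Gls2 and Abat. At Gls2, a glutaminase, the CS peak chr10:128194027-128194145 (fold 4.74) and the CC peak chr10:128194705-128194778 (4.15) lay inside the SS peak (9.44), and the SC peak (13.3) covered the CC segment and not the CS segment. At Abat, which breaks down GABA, the CS peak chr16:8512966-8513097 (3.98) and the CC peak chr16:8513136-8513242 (4.65) lay side by side inside the SS peak (4.08) and the SC peak (4.28). These genes were picked out after their values were seen, and with 1 list per condition the difference in place was not tested.

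Outside promoters, 1 CS peak carried the name of a glutamate or GABA receptor gene. It lay inside the body of Grm8, at chr6:28085404-28085473 (fold 4.35, 40687 bp from the assigned start).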
